A study of Mus musculus with 6 samples.

Results

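The 41 genes described here mark the endothelial cells that line blood and lymph vessels and tell their subtypes apart. They were chosen by name, not by a measured value, and are 41 of the 50600 genes counted in RNA-seq of the cardiac side population (SP), the heart cells that pump out the dye Hoechst. The list holds 10 pan-endothelial surface and secreted proteins, 6 pan-endothelial regulators, 4 capillary genes, the apelin ligand and receptor (2 genes), 6 arterial genes, 5 venous or activation genes, 2 endocardial genes, 3 lymphatic genes and 3 genes that respond to blood flow. All 41 were in the table, and all 41 were among the 13475 protein-coding genes tested, which had more than 1 CPM (counts scaled to library size) in at least 2 libraries. The 6 libraries came from freshly sorted SP cells, 3 from wild-type (wt) C57BL/6NRj mice and 3 from C57BL/6Flt3Ltml/mx mice on the C57BL/6N background (flt3L-/-), which lack the ligand of the receptor tyrosine kinase Flt3 in all cells. The mice were 8 to 12 weeks old, with no treatment named in the labels, SP cells from 4 mice were pooled for each library, and before sorting the suspension had been depleted of cardiomyocytes and erythrocytes. A wt and an flt3L-/- sort were made on each of 3 days, numbered here as pairs 1 and 2 (both 2016) and pair 3 (2017).

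The comparison asks whether loss of Flt3L changes the endothelial make-up of the SP. Total counts lay between 24370913 and 31145519 per library, and 3 counts, taken as the detection limit, equal 0.109 to 0.127 CPM, a limit that covers counting error only. Reads of the targeted gene *Flt3l* were not reduced, with 8.66, 10.8 and 12.1 CPM in the wt libraries of pairs 1, 2 and 3 and 13.6, 12.4 and 14.4 CPM in their partners, so the second group is called the libraries with the flt3L-/- label throughout. The counts do not show which part of *Flt3l* the reads came from. In bulk RNA of pooled cells, fewer cells of a type and less RNA per cell cannot be told apart.

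Endothelial cells share a core of junction and surface proteins, such as Pecam1 (CD31) and Esam, which is kept on by transcription factors of the ETS family (Erg, Fli1), the SoxF group (Sox7, Sox17, Sox18) and the Tal1-Lmo2 complex. On top of this core, arteries use Notch targets and the gap junction proteins Gja4 and Gja5, veins use Nr2f2 and the leukocyte-binding selectins, lymphatic vessels use Prox1, and capillaries of the heart carry transport proteins such as Aqp1 and Car4. Laminar shear acts through the zinc finger factors Klf2 and Klf4, which keep the anticoagulant protein Thbd on.

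The DNA just upstream of some of these genes shows the short letter runs that such factors can recognise. RefSeq promoter windows of GRCm38.p6, 250 bases before to 50 after the start, matched 24 of the 41 genes by symbol. The ETS letters AGGAAG, read on both strands, were in the windows of 11 of these 24 genes (45.8%) and of 38.4% of 27025 genes with a window. SoxF-type letters (ACAAAG or ACAATG, both strands) were in 8 of the 24 (33.3%) against 31.7% of all genes, and CACCC (both strands), the core that Klf factors bind, in 16 (66.7%) against 59.8%. The runs were counted separately and may overlap. These shares were not tested, and a match is a description of the letters, not a binding site. The 250 bases before the start of 5 genes are printed below, with the matched letters in capitals and the strand of the gene. *Sele* and *Selp* are shown because these selectin genes are neighbours on chromosome 1, *Apln* for the largest log2 fold change of the list, *Aqp1* as a capillary gene, and *Cldn5* for its high value in 1 library. This choice was made with the values known. The windows are chr1:164047984-164048233 (plus strand) for *Sele*, chr1:164115014-164115263 (plus) for *Selp*, chrX:48034854-48035103 (minus) for *Apln*, chr6:55336049-55336298 (plus) for *Aqp1* and chr16:18776597-18776846 (plus) for *Cldn5*. Capitals mark the ETS letters in the first 4 and the Klf letters in *Cldn5*.
Sele: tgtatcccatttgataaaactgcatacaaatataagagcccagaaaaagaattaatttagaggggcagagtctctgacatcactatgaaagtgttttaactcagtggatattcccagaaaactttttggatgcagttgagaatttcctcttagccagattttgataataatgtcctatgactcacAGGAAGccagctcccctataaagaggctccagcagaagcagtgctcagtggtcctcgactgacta
Selp: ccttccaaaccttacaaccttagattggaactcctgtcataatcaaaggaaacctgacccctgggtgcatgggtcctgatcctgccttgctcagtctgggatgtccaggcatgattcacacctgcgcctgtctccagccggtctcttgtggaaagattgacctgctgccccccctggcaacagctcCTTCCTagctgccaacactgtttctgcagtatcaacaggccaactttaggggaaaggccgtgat
Apln: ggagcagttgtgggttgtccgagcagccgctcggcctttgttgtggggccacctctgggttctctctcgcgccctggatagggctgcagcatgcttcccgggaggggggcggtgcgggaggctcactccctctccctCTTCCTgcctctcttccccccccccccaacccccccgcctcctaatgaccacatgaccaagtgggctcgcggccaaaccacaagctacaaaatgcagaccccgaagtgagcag
Aqp1: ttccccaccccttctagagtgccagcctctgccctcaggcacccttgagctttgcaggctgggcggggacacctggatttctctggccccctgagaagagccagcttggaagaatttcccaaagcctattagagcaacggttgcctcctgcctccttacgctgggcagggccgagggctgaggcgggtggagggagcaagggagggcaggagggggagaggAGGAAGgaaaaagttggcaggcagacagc
Cldn5: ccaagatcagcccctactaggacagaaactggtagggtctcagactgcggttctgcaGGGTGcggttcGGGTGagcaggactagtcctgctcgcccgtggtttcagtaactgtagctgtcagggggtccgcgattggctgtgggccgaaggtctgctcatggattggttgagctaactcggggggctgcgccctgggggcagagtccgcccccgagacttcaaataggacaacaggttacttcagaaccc
The ETS letters began 65 bases before the start in *Sele*, 64 in *Selp*, 113 in *Apln* and 29 in *Aqp1*, and lay on the opposite strand in *Selp* and *Apln*. The Klf letters of *Cldn5* occurred 2 times, 193 and 182 bases before the start and both on the opposite strand.

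Endothelial genes were among the most highly expressed genes of the SP. Per kilobase of exon, the mean wt level of 23 of the 41 genes was at or above the 90th percentile of the 13475 tested genes, and that of 9 genes was under the 50th. The capillary genes *Ly6c1*, a GPI-anchored surface protein, and *Rgcc*, a regulator of the cell cycle, had the highest levels, with 681 and 609 CPM per kilobase in wt. They were followed by the junction protein *Esam* (273), *Pecam1* (174, percentile 98.5) and the water channel *Aqp1* (173). *Klf2* (157), *Egfl7* (157), *Thbd* (115) and *Icam2* (98.8 CPM per kilobase) came next. The marker *Vwf*, the clotting factor carrier that large vessels make most, was lower at 13.2 CPM per kilobase (percentile 73.2). The labelled cell population therefore holds the 2 defining endothelial markers *Pecam1* and *Vwf* in every library, and its labels name no gate on CD31. At the low end were *Prox1* (1.05 CPM per kilobase), *Nr2f2* (1.03), the natriuretic peptide clearance receptor *Npr3* (0.602) and the arterial Notch target *Hey2* (0.522, percentile 8.01). Even *Hey2* had 45 counts or more in each library, so that no member was near the detection limit. By their wt means in these units, capillary genes stood above the arterial, venous, endocardial and lymphatic ones, with the lowest capillary gene, the carbonic anhydrase *Car4*, at 51.0 CPM per kilobase. The adhesion molecule *Vcam1*, at 45.0, and the SoxF factor *Sox17*, at 44.8, came closest. This order did not hold in each library, since in the wt library of pair 1 *Vcam1*, *Sele*, *Sox17* and the endocardial gene *Nfatc1* were above *Car4*.

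**Figure D1:**
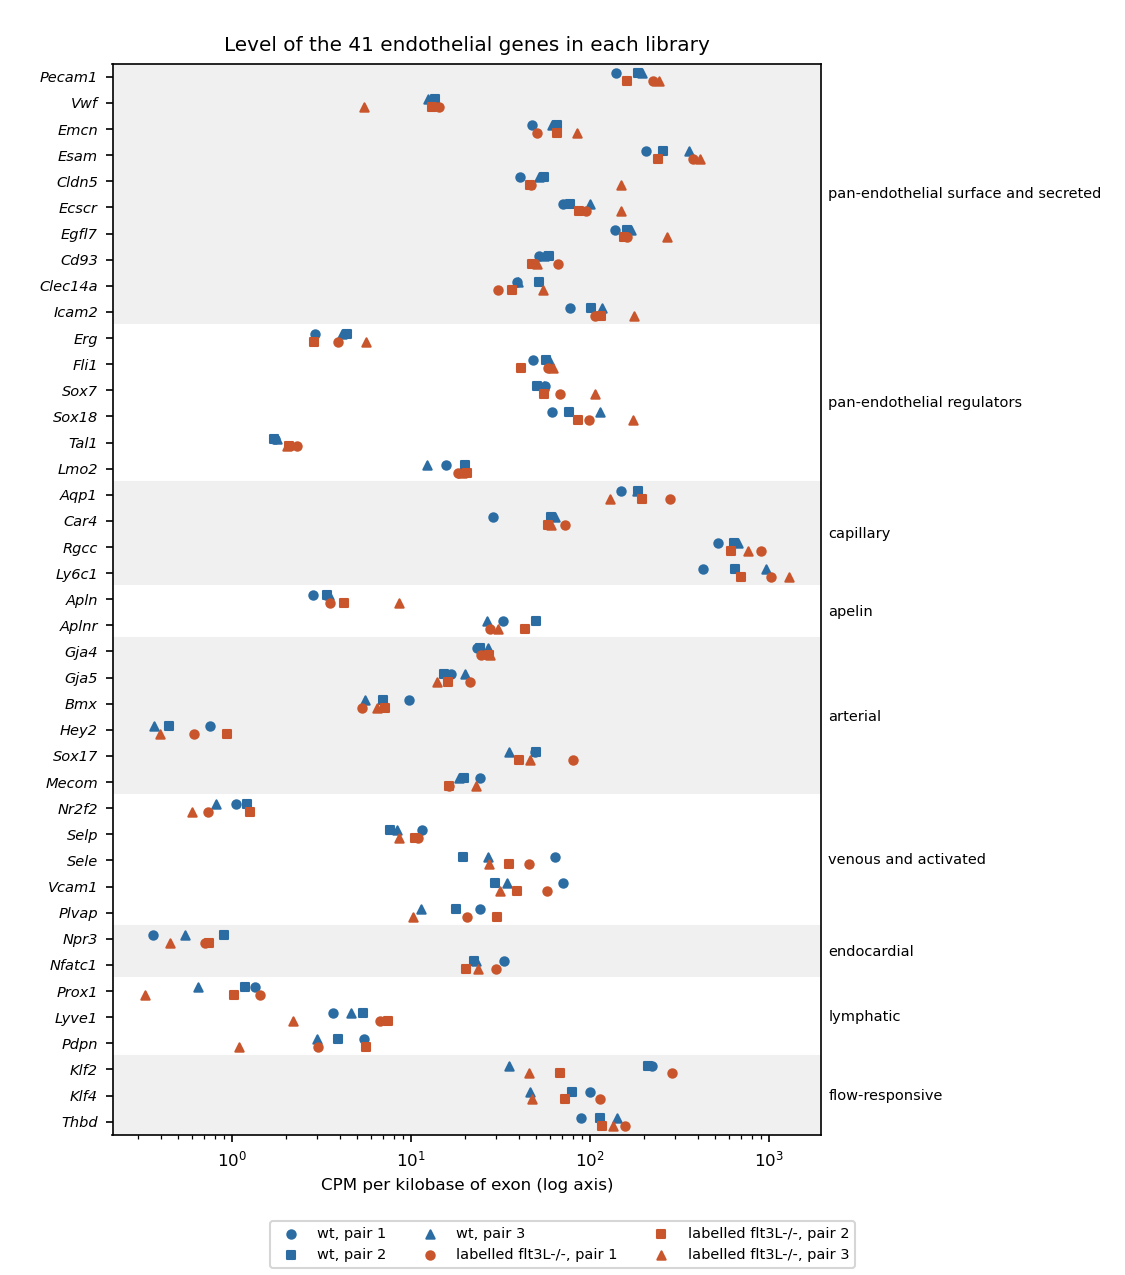
Level of each of the 41 genes in the 6 libraries, in CPM per kilobase of exon on a log axis, grouped by subtype, with circles, squares and triangles for pairs 1, 2 and 3. Wt and labelled flt3L-/- points lie within one another's range for most genes, mean wt levels span from 0.522 (*Hey2*) to 681 (*Ly6c1*), and *Klf2* and *Prox1* are lowest in both libraries of pair 3.

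Reads of some members could come from other genes. *Ly6c1* has a near-identical neighbour, *Ly6c2* (84.2 to 267 CPM over the libraries), and reads with equally good hits were placed at random by the authors, so the level of *Ly6c1* is uncertain. The library kit did not mark strand, and an annotated gene overlaps 16.8% of the exon bases of *Sox17*, 14.1% of *Selp*, 11.2% of *Egfl7*, 7.46% of *Nr2f2* and 3.54% of *Ecscr*. The overlap was 3.42% for *Npr3*, 2.87% for *Gja5* and under 2% for *Prox1*, *Vcam1* and *Mecom*, and the other 30 members apart from *Ly6c1* had none.

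None of the 41 genes was called different between the groups. With edgeR's quasi-likelihood test and the sorting date as a covariate, 0 of the 13475 genes (0%) had an adjusted p under 0.05, and the smallest adjusted p of any member was 0.973. At an unadjusted p under 0.05, which 3.59% of all tested genes had, 3 of 41 members (7.32%) stood out, namely *Ecscr*, *Icam2* and *Sox18*, each higher in the libraries with the flt3L-/- label. At this limit 1.11% of all genes were higher and 2.49% lower. This count was 0 without pair 1 (2.57% of all genes), 5 without pair 2 (7.47%), 1 without pair 3 (1.87%) and 0 without the sorting date in the model (1.94%). DESeq2 called 21 genes (0.156%) over all pairs and 0 members, and 4 members (9.76%) had an unadjusted p under 0.05 there, as did 641 of all genes (4.76%). The median log2 fold change of the 41 genes was 0.13, against -0.00027 over all tested genes, with a positive value for 27 of 41 genes. By pair the median was 0.28, 0.025 and 0.19 (SD 0.13), and 29, 22 and 28 of the genes were higher in pairs 1, 2 and 3. The values of 10 members (24.4%) were higher in the library with the flt3L-/- label in each of the 3 pairs, as were those of 14.2% of all genes, and 0 members were lower in each pair, as 11.5% of all genes were. Groups that did not overlap were found for *Tal1* and *Apln*, both higher, and such separation held for 3.53% of all genes upwards and for 2.92% downwards. For 26 members the difference between the group means was smaller than the SD of the 3 wt libraries. With 3 pairs, an exact two-sided test on a single gene cannot go below 0.25, and with 3 against 3 unpaired libraries not below 0.1.

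**Figure D2:**
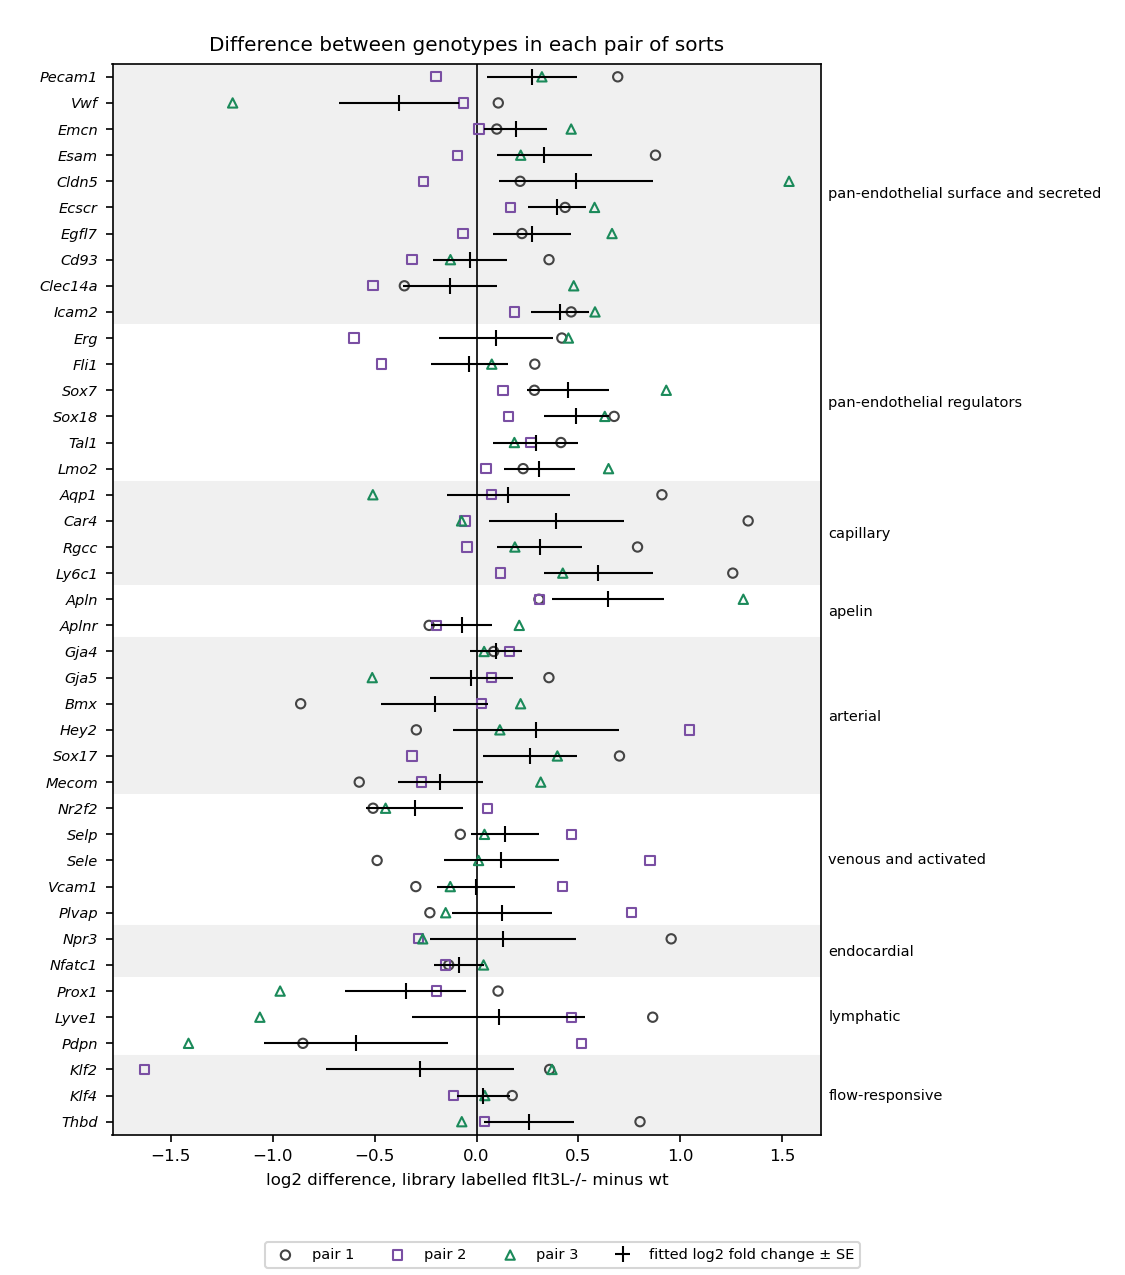
Log2 difference of the library with the flt3L-/- label minus its wt partner for each of the 41 genes, with open symbols for the 3 pairs and a black tick and bar for the fitted log2 fold change ± SE. Pair 2 (squares) lies left of zero for many pan-endothelial genes, where pairs 1 and 3 lie right of it, and the pairs disagree most for *Klf2*, from -1.63 to 0.37.

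The pan-endothelial surface and secreted genes had a median log2 fold change of 0.27 and a positive value for 7 of 10 genes. By pair the median was 0.29, -0.080 and 0.47. Their summed level was 3278, 4083 and 4404 CPM in wt and 4591, 3738 and 5617 CPM in the libraries with the flt3L-/- label, so 2 of 3 pairs were higher. *Icam2* (ENSMUSG00000001029, chromosome 11 of GRCm38, 106377656 to 106388075), a ligand of leukocyte integrins at endothelial junctions, had 147, 194 and 224 CPM in wt and 203, 220.1 and 335 CPM in the libraries with the flt3L-/- label. All 3 partners were higher, yet the groups overlapped because the level also differed between days. The log2 fold change of *Icam2* was 0.41 (SE 0.14, edgeR unadjusted p 0.0358, adjusted p 0.973). *Ecscr* (ENSMUSG00000073599, chromosome 18, 35713086 to 35722356), which encodes an endothelial surface protein that acts in cell migration, had 124, 135 and 176 CPM in wt against 167, 152 and 262 CPM. Its log2 fold change was 0.39 (SE 0.14, edgeR unadjusted p 0.0405, adjusted p 0.973). *Pecam1* (ENSMUSG00000020717, chromosome 11, 106654217 to 106750628) was at 872, 1156 and 1219 CPM in wt and at 1410, 1007 and 1523 CPM in the libraries with the flt3L-/- label. The partner of pair 2 was the lower one, and the log2 fold change was 0.27 (SE 0.22), or 0.061 to 0.49 with 1 pair left out. *Vwf* (ENSMUSG00000001930, chromosome 6, 125546774 to 125686679) varied little over the wt libraries, at 215, 219.9 and 201 CPM, and was at 232, 211 and 87.6 CPM in the other group. Its log2 fold change of -0.38 (SE 0.29) rested on pair 3, and it was 0.022 without that pair. The tight junction protein *Cldn5* (ENSMUSG00000041378, chromosome 16, 18776847 to 18778262) showed the reverse in the same library. It had 57.3, 78.2 and 73.3 CPM in wt and 66.4, 65.2 and 212 CPM in the libraries with the flt3L-/- label, and its log2 fold change of 0.49 (SE 0.38) became -0.025 without pair 3. Of the others, the surface sialomucin *Emcn* (log2 fold change 0.19) was higher in each pair, *Esam* (0.33) and the secreted *Egfl7* (0.27) in pairs 1 and 3, and the lectin-like receptors *Cd93* (-0.030) and *Clec14a* (-0.13) in 1 pair each.

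Among the regulators, *Sox7*, *Sox18* and both genes of the Tal1-Lmo2 complex had higher values in each pair, and the ETS factors did not. *Sox18* (ENSMUSG00000046470, chromosome 2, 181669836 to 181671640), a SoxF factor of vessel growth, had 99.9, 124 and 183 CPM in wt and 160, 139 and 284 CPM in the libraries with the flt3L-/- label. This log2 fold change was 0.49 (SE 0.16, edgeR unadjusted p 0.0297, adjusted p 0.973), the smallest p of all members, and DESeq2 gave an adjusted p of 0.912. *Sox7* (ENSMUSG00000063060, chromosome 14, 63943673 to 63950732) was at 185, 166 and 184 CPM in wt and at 226, 182 and 350.1 CPM in their partners, a log2 fold change of 0.45 (SE 0.20). *Tal1* (ENSMUSG00000028717, chromosome 4, 115056426 to 115071755), the helix-loop-helix factor of blood and endothelial fate, was low and steady. Its 7.57, 7.56 and 7.82 CPM in wt all lay under the 10.1, 9.12 and 8.90 CPM of the libraries with the flt3L-/- label, with a log2 fold change of 0.29 (SE 0.21, edgeR unadjusted p 0.224). *Lmo2* (ENSMUSG00000032698, chromosome 2, 103957986 to 103981878), its LIM-domain partner, had a log2 fold change of 0.31 (SE 0.17). The ETS factor *Erg* (10.1, 15.2 and 14.2 CPM in wt against 13.6, 9.96 and 19.5 CPM) had a log2 fold change of 0.094 (SE 0.28), and *Fli1* one of -0.035 (SE 0.19). Pair 2 was lower for both. The median over the 6 regulators was 0.30, with 0.35, 0.088 and 0.54 in the pairs.

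The 4 capillary genes all had a positive log2 fold change, with a median of 0.35. By the medians, the excess was almost entirely in pair 1, at 1.08, against 0.013 and 0.057 in pairs 2 and 3. Without pair 1 the median was 0.0020. In pair 3 the genes went both ways, from -0.51 (*Aqp1*) to 0.42 (*Ly6c1*). Their summed level was 1646, 2279 and 2844 CPM in wt and 3425, 2372 and 3332 CPM in the libraries with the flt3L-/- label, and the wt library of pair 1 stood lowest. *Ly6c1* (ENSMUSG00000079018, chromosome 15, 75044018 to 75048830) had 718, 1088 and 1622 CPM in wt and 1716, 1179 and 2174 CPM in the other group, a log2 fold change of 0.60 (SE 0.27, edgeR unadjusted p 0.0782). Its near-identical neighbour *Ly6c2* was at 0.51 (SE 0.27), made up of 1.26, 0.062 and 0.22 by pair, where *Ly6c1* itself had 1.26, 0.12 and 0.42. *Car4* (ENSMUSG00000000805, chromosome 11, 84957786 to 84966044), the membrane-bound carbonic anhydrase of capillaries, was at 56.8, 119 and 125 CPM in wt and at 143, 115 and 119 CPM in the libraries with the flt3L-/- label. Only the wt library of pair 1 was far from the others, and the log2 fold change of 0.39 (SE 0.33) was -0.066 without it and its partner. *Rgcc* was at 0.31 (SE 0.21) and *Aqp1* at 0.16 (SE 0.30), with differences of 0.91, 0.072 and -0.51 for *Aqp1*. The median marker gene of fibroblasts and of mural cells was lower in the library with the flt3L-/- label in pair 1. As given with the other cell types, it was also lower in pair 3, where the capillary median was near zero. The erythroid genes, listed there too, had pair medians of 1.009, 0.0062 and 0.058, also high in pair 1 only. The part of these cell types in the capillary values was not tested.

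*Apln* (ENSMUSG00000037010, chromosome X, 48025146 to 48034853) encodes apelin, a peptide that sprouting endothelial cells release. It had the largest log2 fold change of the 41 genes, 0.64 (SE 0.28, edgeR unadjusted p 0.0685, adjusted p 0.973). Its level was 8.93, 10.7 and 10.9 CPM in wt and 11.1, 13.2 and 27.1 CPM in the libraries with the flt3L-/- label, so that the groups did not overlap, although the margin in pair 1 was small and the library of pair 3 stood apart. Without pair 3 the log2 fold change was 0.31. The receptor *Aplnr* (ENSMUSG00000044338, chromosome 2, 85136225 to 85139923), a vein-enriched gene, was at 120.2, 184 and 98.4 CPM in wt and at 102, 160 and 114 CPM in the other group. Both groups were highest in pair 2, and the log2 fold change was -0.073 (SE 0.15).

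Arterial genes showed no shared direction, with a median log2 fold change of 0.034 and pair medians of -0.11, 0.050 and 0.17. *Gja4* (ENSMUSG00000050234, chromosome 4, 127311421 to 127314039), which encodes the gap junction protein connexin 37, was the steadiest of all members, at 39.3, 41.1 and 45.4 CPM in wt and 41.7, 46.0 and 46.6 CPM in the libraries with the flt3L-/- label. The highest library exceeded the lowest by 1.19-fold, and the log2 fold change was 0.095 (SE 0.13). *Sox17* (ENSMUSG00000025902, chromosome 1, 4490931 to 4497354), the SoxF factor of arteries, had 235, 238 and 169 CPM in wt and 382, 191 and 222 CPM in their partners, a log2 fold change of 0.26 (SE 0.23). The connexin 40 gene *Gja5* was at -0.027 (SE 0.20), the kinase gene *Bmx* at -0.21 (SE 0.26), and the zinc finger gene *Mecom* at -0.18 (SE 0.21), each with pairs of both signs. *Hey2* had 3.46, 2.05 and 1.67 CPM in wt and 2.80, 4.32 and 1.82 CPM in the other group, and its log2 fold change of 0.29 (SE 0.41) was smaller than its error.

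Venous and activation genes had a median of 0.12, and here pair 2 was the high one, with pair medians of -0.30, 0.46 and -0.13. *Vcam1* (ENSMUSG00000027962, chromosome 3, 116109949 to 116129688), an adhesion molecule for leukocytes that mural cells and fibroblasts can also make, had 631, 261 and 305 CPM in wt and 514, 349 and 279 CPM in the libraries with the flt3L-/- label. *Sele* (ENSMUSG00000026582, chromosome 1, 164048234 to 164057677), the selectin that activated endothelium puts on its surface, had 186, 56.7 and 78.6 CPM in wt and 132, 102 and 79.1 CPM in the other group. The libraries of pair 1 were the highest of both groups for *Vcam1* and *Sele*, and the log2 fold changes were -0.0025 (SE 0.19) and 0.12 (SE 0.28). *Selp*, its neighbour, whose product endothelial cells store beside Vwf, was steadier, at 50.9, 33.7 and 36.9 CPM in wt and 48.2, 46.5 and 37.9 CPM in the libraries with the flt3L-/- label (log2 fold change 0.14, SE 0.17). *Plvap*, the diaphragm protein of fenestrae, was at 48.1, 35.5 and 22.6 CPM in wt and at 41.01, 60.1 and 20.3 CPM in their partners. *Nr2f2* (ENSMUSG00000030551, chromosome 7, 70351944 to 70366735), the nuclear receptor that sets venous fate, was low, with 9.09, 10.5 and 7.03 CPM in wt and 6.37, 10.9 and 5.14 CPM in the libraries with the flt3L-/- label. Its log2 fold change was -0.30 (SE 0.24).

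Of the endocardial pair, *Nfatc1* (ENSMUSG00000033016, chromosome 18, 80606205 to 80713071), a factor of valve formation, had 246, 169 and 172 CPM in wt and 224, 152 and 176 CPM in the libraries with the flt3L-/- label, a log2 fold change of -0.085 (SE 0.12). *Npr3* had 3.38, 8.49 and 5.10 CPM in wt and 6.62, 6.95 and 4.23 CPM in the other group (0.13, SE 0.36). Neither gene separated the groups.

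The lymphatic genes had the lowest median of any subtype, -0.35, which came from pair 3, with pair medians of 0.11, 0.47 and -1.06. *Prox1* (ENSMUSG00000010175, chromosome 1, 190118035 to 190170714), the factor that sets lymphatic identity, had 11.2, 9.89 and 5.40 CPM in wt and 12.1, 8.61 and 2.73 CPM in the libraries with the flt3L-/- label. Its log2 fold change was -0.35 (SE 0.30) and -0.046 without pair 3. *Pdpn* (ENSMUSG00000028583, chromosome 4, 143267431 to 143299564), a sialoglycoprotein of lymphatic endothelium that fibroblasts also make, was at 9.98, 7.13 and 5.40 CPM in wt and at 5.50, 10.2 and 1.98 CPM in their partners. Its value of -0.59 (SE 0.45) was the lowest of the 41 genes, and the pairs gave -0.85, 0.51 and -1.41. *Lyve1* (ENSMUSG00000030787, chromosome 7, 110850607 to 110863239), a hyaluronan receptor of lymphatic vessels and of resident macrophages, had 10.7, 15.7 and 13.5 CPM in wt and 19.6, 21.7 and 6.41 CPM in the libraries with the flt3L-/- label. It was higher in pairs 1 and 2 and lower in pair 3, with 0.86, 0.47 and -1.06.

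The flow-responsive genes had a median of 0.034. *Klf2* (ENSMUSG00000055148, chromosome 8, 72319033 to 72321656), the main shear-induced factor, varied most of all members. It was at 412, 391 and 65.5 CPM in wt and at 529, 127 and 84.7 CPM in the libraries with the flt3L-/- label, an 8.07-fold range. The log2 fold change of -0.28 (SE 0.46) came from pair 2, which gave -1.63 against 0.36 and 0.37 in the others, and it was 0.34 without that pair. *Klf4* (ENSMUSG00000003032, chromosome 4, 55527143 to 55532466) was at 306, 241 and 141 CPM in wt and at 346, 223 and 145 CPM in their partners. In both groups each later day was lower, and the log2 fold change was 0.034 (SE 0.13). *Thbd*, the thrombin receptor that these factors keep on, had 334, 422 and 526 CPM in wt and 582, 434 and 500.0 CPM in the libraries with the flt3L-/- label (0.26, SE 0.22), and it did not share the order of *Klf2* and *Klf4*.

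None of the other endothelial genes was called either. Of 51 further genes listed by the same subtypes, 50 were tested, and 3 were higher and 1 lower at an unadjusted p under 0.05 in edgeR. Together these were 8% of the 50, against 3.59% of all tested genes (1.11% higher and 2.49% lower). The median log2 fold change of the 50 genes was 0.14, with 0.42, -0.20 and 0.081 in the pairs. Of them 6 (12%) were higher and 3 (6%) lower in each pair. These shares were 14.2% and 11.5% for all tested genes, and 24.4% and 0% for the 41 members. *Icam1*, which binds leukocytes on activated endothelium, had 768, 650 and 667 CPM in wt and 1048, 789 and 1107 CPM in the libraries with the flt3L-/- label, a log2 fold change of 0.49 (SE 0.16) with groups that did not overlap. The tubulin-binding *Stmn2* was at 0.37 (SE 0.13). *Smoc1*, a secreted matrix protein of the endocardial list, had a log2 fold change of -0.83 (SE 0.32). The 7 further capillary genes were all positive, with a median of 0.36 (0.73, -0.22 and 0.47 in the pairs), as the 4 listed capillary genes were. Their most abundant gene was the fatty acid carrier *Cd36*, at 4182, 6149 and 6628 CPM in wt and 6967, 4708 and 9171 CPM in the other group (0.28, SE 0.28). The 4 further venous genes tested were also all positive (median 0.16), as were 12 of the 16 other pan-endothelial genes (0.14), with *Kdr* at -0.17. Of the 9 arterial genes 3 were positive (median -0.16), and 3 were higher in each pair. At an unadjusted p under 0.05 in edgeR 2 of the 9 were higher, *Stmn2* among them, as were 1.11% of all tested genes. Of the 5 endocardial genes 2 were positive (median -0.12). Of the 5 lymphatic genes 1 was positive (median -0.39), and of the 4 tip cell genes 2 (0.11). The lists were described by counts and medians only, and no difference between them was tested.

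More members passed the unadjusted limit between the sorting days than between the labels. For a difference between the 3 dates in the same edgeR fit, 11 of the 41 members (26.8%) had an unadjusted p under 0.05. So did 8.28% of all tested genes and 3 of the 50 other endothelial genes (6%). In the lists of other cell types given below, so did 4 of 9 mural, 2 of 7 fibroblast, 2 of 8 macrophage and 2 of 4 mesothelial genes. The lymphocyte, platelet, erythroid, cardiomyocyte and neutrophil lists had 0 such genes. After adjustment over all genes 0 members passed, with 0.598 as the lowest adjusted p. With pair 1, 2 or 3 (the sort of 2017) left out, 8, 13 or 3 members had an unadjusted p under 0.05. The number of all genes at that limit also changed over these fits, from 699 to 1887, against 1116 with all pairs. The comparison between dates was added after the values had been seen. *Klf4* had the smallest value (edgeR unadjusted p 0.00257), with means over the groups of 326, 232 and 143 CPM in pairs 1, 2 and 3. *Klf2* had the same order, at 470.4, 259 and 75.1 CPM. *Klf2*, *Klf4*, *Plvap* and *Prox1* were lowest in pair 3 in both groups, at 21.5 CPM on average for *Plvap* and 4.06 CPM for *Prox1*. *Ecscr*, *Icam2* and *Sox18*, the 3 members with the smallest p between the labels, were highest in pair 3 in both groups, at 219, 279 and 233 CPM on average against 145, 175 and 130 CPM in pair 1. *Sele*, *Vcam1* and *Nfatc1* were highest in pair 1 in both groups, as *Prox1*, *Klf2* and *Klf4* were, and *Aplnr* was highest in pair 2, at 172 CPM against 111 and 106 CPM. The share of counts on mitochondrial genes also differed by day, at 0.479% and 0.556% in pair 1, 0.872% and 1.06% in pair 2 and 1.10% and 1.75% in pair 3, the second value being that of the library with the flt3L-/- label, which was the higher one in 3 of 3 pairs. Its part in the differences by day and by label was not tested, and the day, the batch of mice and the handling of that day cannot be told apart.

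**Figure D3:**
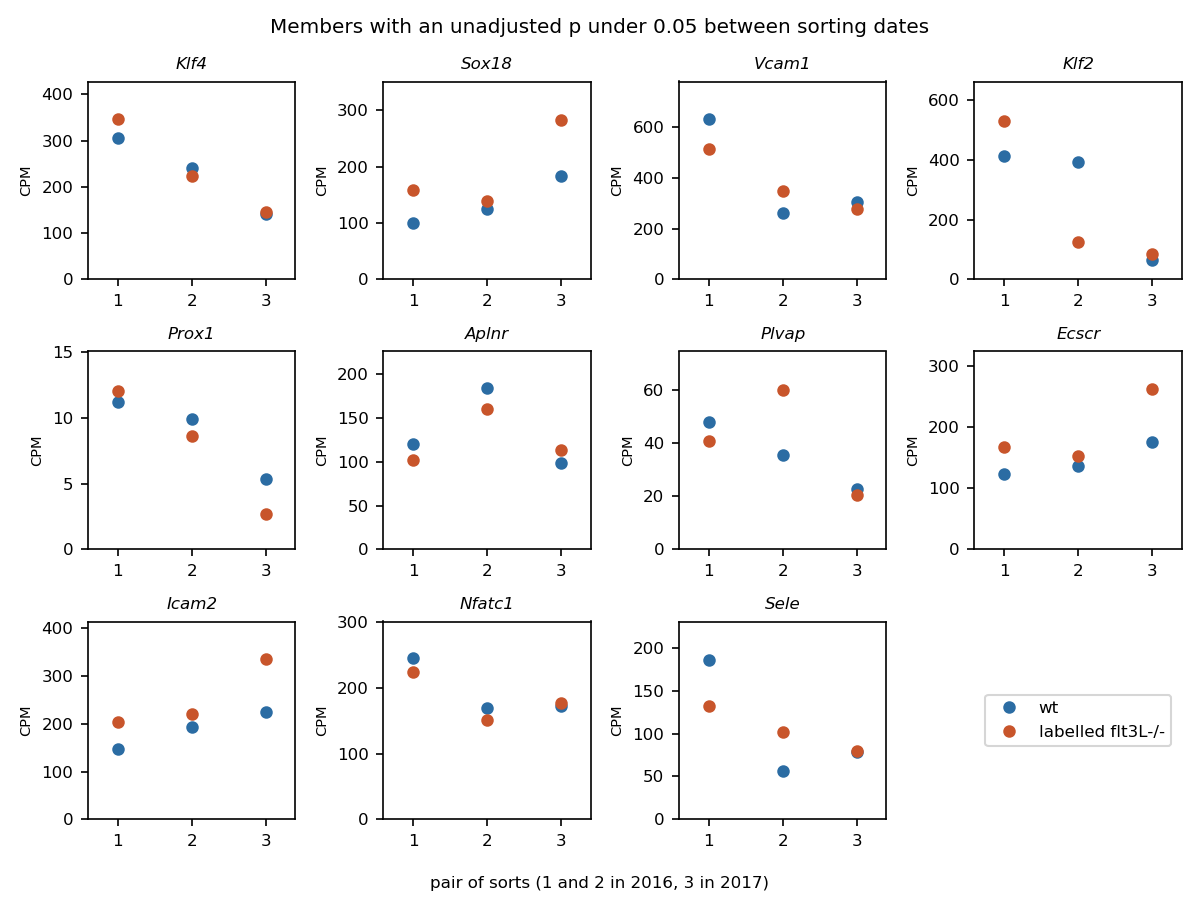
Level in CPM of the 11 members with an unadjusted p under 0.05 between sorting dates, by pair (1 and 2 in 2016, 3 in 2017), with wt in blue and the libraries with the flt3L-/- label in orange. Both colours move together for *Klf4*, from 306 and 346 CPM in pair 1 to 141 and 145 CPM in pair 3, while for *Klf2* they part in pair 2 (391 against 127 CPM).

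Genes of other cell types were present in every library at levels that differed widely between libraries. The 7 fibroblast genes, led by *Dcn*, summed to 15792, 8510.5 and 6552 CPM in wt and 6417, 9911 and 3313 CPM in the libraries with the flt3L-/- label. The median log2 fold change of this list was -0.65, with -1.003, 0.081 and -1.13 in the pairs and 0 positive genes. At an unadjusted p under 0.05 in edgeR, 2 of the 7 genes were lower, as were 2.49% of all tested genes. The 9 genes of pericytes and smooth muscle summed to 913, 448 and 498 CPM in wt and 566, 504 and 276 CPM in the other group (median -0.44, pairs -0.73, 0.25 and -0.94, with 2 lower). By their medians, both lists were thus lower in pairs 1 and 3 and level or higher in pair 2. This was the reverse of the pan-endothelial genes, which were higher in pairs 1 and 3. Single genes departed from the medians, since 3 fibroblast and 3 mural genes fell in all 3 pairs. *Col1a2*, the fibroblast gene with the smallest p, differed by -0.92, -0.40 and -1.71. *Myh11*, its mural counterpart, differed by -1.32, -0.66 and -0.29. Members that, like the 2 list medians, were lower in pairs 1 and 3 and higher in pair 2 were *Pdpn*, *Nr2f2*, *Vcam1* and *Plvap*. The differences were -0.51, 0.052 and -0.45 for *Nr2f2*, -0.30, 0.42 and -0.13 for *Vcam1*, and -0.23, 0.76 and -0.15 for *Plvap*. The part of fibroblasts and mural cells in these values was not tested. The 8 genes of macrophages and monocytes summed to 43.3, 636 and 1772 CPM in wt and 324, 1040 and 101 CPM in the libraries with the flt3L-/- label, with pair medians of 1.48, 0.59 and -2.82. The most abundant gene of this list, *Lyz2*, differed by 3.83, 0.74 and -4.50 in the pairs. *C1qb* of the same list, at 0.54, 5.43 and 3.42 CPM in wt, differed by 0.61, 0.25 and 0.086, so it was not lower in pair 3. The differences of *Lyve1* had the signs and order of the list medians, but not the signs of *C1qb*. Neutrophil genes had the same order, with pair medians of 5.82, 1.33 and -3.62. The part of macrophages in the values of *Lyve1* was not tested.

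The remaining lists were smaller. The 8 genes of lymphocytes and NK cells summed to between 41.7 and 176 CPM in wt and between 25.9 and 82.0 CPM in the libraries with the flt3L-/- label. At an unadjusted p under 0.05 in edgeR, 1 of the 5 tested genes was lower, as were 2.49% of all tested genes. Neutrophil genes summed to 1.90 to 91.5 CPM in wt and 6.25 to 204 CPM in the other group, mesothelial genes to 21.5 to 55.7 and 37.1 to 52.7 CPM, and platelet genes to 10.1 to 16.9 and 10.9 to 17.2 CPM, each with 0 genes at that limit. Erythroid genes summed to 243 to 419 CPM in wt and 372 to 491 CPM in the libraries with the flt3L-/- label, and cardiomyocyte genes to 89.0 to 127 and 127 to 165 CPM. In each of these lists 1 gene was higher at that limit, as were 1.11% of all tested genes. No listed gene of any of these cell types was at 0 in every library. The 13 immediate early genes, which the release of cells from tissue can induce, summed to between 21147 and 29457 CPM in wt. In the other group they summed to between 22976 and 26023 CPM, with 0 genes at that limit between the labels. Between the dates 3 of the 13 had an unadjusted p under 0.05 in edgeR, as did 8.28% of all tested genes.

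**Figure D4:**
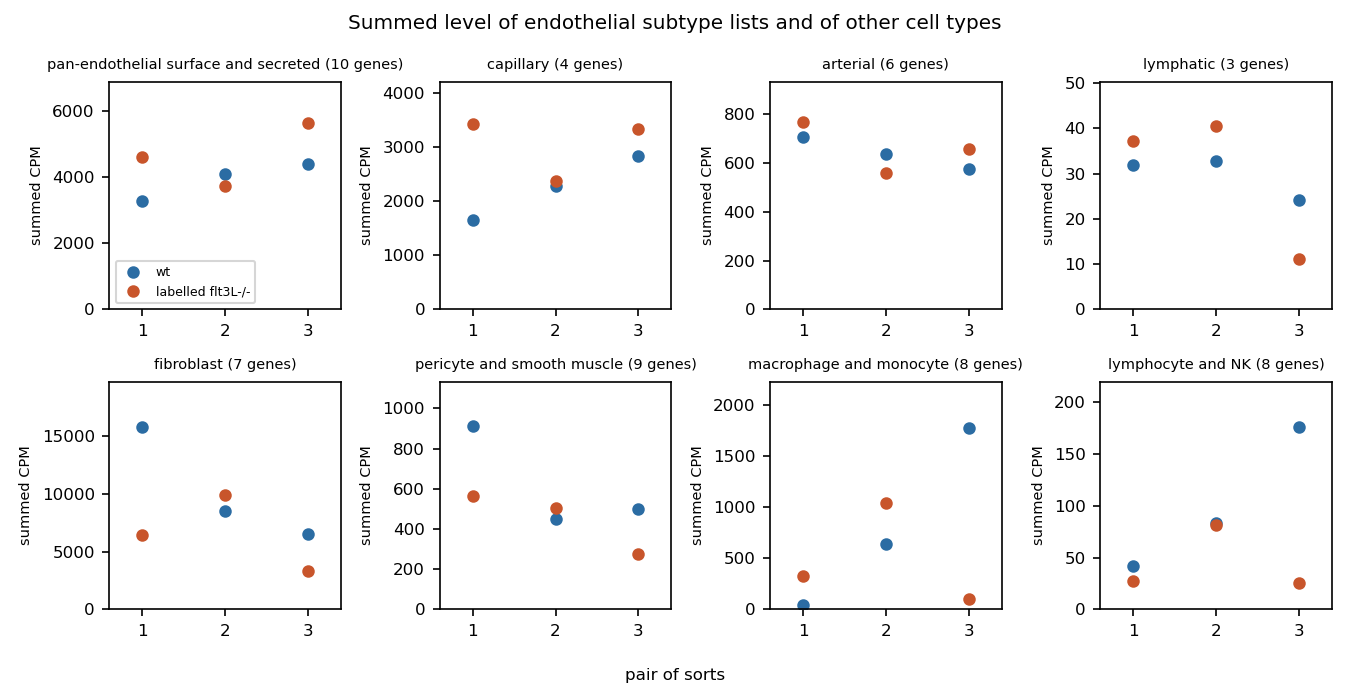
Summed CPM of 4 endothelial subtype lists (top row) and of 4 lists of other cell types (bottom row) by pair of sorts, with wt in blue and the libraries with the flt3L-/- label in orange. In pairs 1 and 3 the sum of the fibroblast genes is lower in the libraries with the flt3L-/- label. There the sums of the pan-endothelial surface and secreted genes and of the capillary genes are higher. Macrophage genes range from 43.3 to 1772 CPM among the wt libraries alone.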

How the data were processed

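RNA-seq reads of 3 wt SP libraries and 3 libraries labelled flt3L-/- were analysed from the table of counts that the authors deposited, with no normalization applied. Per the study's methods and the submitters' processing notes, single reads of 81 bases were mapped to mm10 with STAR 2.5.2a, with up to 10 hits allowed and equally good hits placed at random, and qCount (QuasR 1.18.0) assigned them to the genes of Ensembl release 88. Gene positions, biotypes and exon lengths came from GENCODE M21 on GRCm38, which held 50376 of the 50600 genes. The other 224 were not treated as protein-coding. Total counts lay between 24370913 and 31145519 per library, and 91.5% to 93.8% of them fell on protein-coding genes, which made up the library sizes.

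Protein-coding genes with a CPM above 1 in at least 2 libraries (13475) were fitted in edgeR 4.0.16 on R 4.3.3 with TMM factors, the sorting date as a block, and glmQLFit and glmQLFTest with legacy = TRUE. This left 2 residual degrees of freedom (2.79 prior) at a common dispersion of 0.0978. P-values were adjusted by Benjamini-Hochberg over all genes tested. The SE is the size of the log2 fold change over the root of F, and a prior count of 2 was added for differences within pairs. CPM per kilobase is CPM divided by the union exon length. Promoter windows came from RefSeq (GRCm38.p6). The scripts were tested on simulated data. P-values measure the spread between pooled sorts.

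The labels and the study's methods state that the sorts were paired by date. After removal of group means, the correlation across genes between partners was 0.180, 0.104 and 0.116, against -0.354 to 0.247 between libraries of different dates. No library was a copy of another (chi-square per degree of freedom of 38.8 or more, correlations of log2 CPM of 0.914 to 0.976).

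The 41 members, the other gene lists and the tests were chosen with earlier results of these data known. By the rule for named genes, all members were accounted for, and of each other list only the most abundant gene and the gene with the smallest p could be named, plus *Flt3l*. *Ly6c2* was added because it is a near copy of a member. The alternatives were DESeq2 1.42.0, its size factors, library size only, legacy = FALSE, no filter, a CPM above 1 in all 6 libraries, all biotypes, no date block and each pair left out. The test between dates was added after the values had been seen.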

Additional observations from a re-analysis of the deposited data

How the results depend on the processing

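Under 8 alternatives that kept all 6 libraries and 3 that left out a pair, 0 of the 41 members were called, and the median log2 fold change of the members stayed positive, at 0.092 to 0.19 and 0.061 to 0.18. DESeq2 in place of edgeR called 21 genes where edgeR called 0. With no replicate block, that is without the pairing by date, 262 genes and 0 members had an unadjusted p under 0.05, against 484 and 3 with it. The block changed no adjusted call. With 1 pair left out, the number of genes with an unadjusted p under 0.05 ran from 249 (without pair 3) to 980 (without pair 2), and that of members from 0 (without pair 1) to 5. Members with an unadjusted p under 0.05 between the dates ran from 3 (without pair 3) to 13, and the genes from 699 to 1887. Of the members, 19 kept the sign of their log2 fold change in every alternative, 19 changed it only when a pair was left out, and 3 changed it elsewhere too. These were *Klf4* (-0.0053 with library size only), *Vcam1* (0.0019 with no filter) and *Sele* (-0.032 with no replicate block). When 1 pair was left out, subtype medians crossed zero for the arterial genes (-0.11 to 0.16), the flow-responsive genes (-0.037 to 0.34), the venous and activation genes (-0.24 to 0.25, and -0.032 with no replicate block) and the endocardial genes (-0.17 to 0.13). With library size only, the arterial, flow-responsive and endocardial medians were also below zero, at -0.0051, -0.0053 and -0.017, and with no replicate block the endocardial median was -0.0097.

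When 1 pair was left out, log2 fold changes that changed sign ran from -0.092 to 0.42 for *Erg*, -0.22 to 0.49 for *Aqp1*, -0.066 to 0.64 for *Car4*, -0.21 to 0.0062 for *Aplnr*, -0.42 to 0.12 for *Bmx*, -0.42 to 0.022 for *Mecom* and -0.24 to 0.15 for *Vcam1*. They ran from -0.28 to 0.33 for *Npr3*, -0.29 to 0.67 for *Lyve1*, -0.037 to 0.086 for *Klf4*, -0.017 to 0.42 for *Thbd*, -0.22 to 0.092 for *Cd93*, -0.43 to 0.040 for *Clec14a*, -0.20 to 0.16 for *Fli1* and -0.12 to 0.60 for *Hey2*. For the rest they ran from -0.042 to 0.25 (*Selp*), -0.26 to 0.43 (*Sele*), -0.21 to 0.31 (*Plvap*), -0.63 to 0.34 (*Klf2*), -0.63 to 0.022 (*Vwf*), -0.025 to 0.85 (*Cldn5*) and -0.22 to 0.21 (*Gja5*). Among members that kept their sign, the values ran from 0.061 to 0.53 for *Esam*, 0.27 to 0.82 for *Ly6c1*, 0.21 to 0.59 for *Sox7*, 0.039 to 0.53 for *Sox17* and -1.17 to -0.17 for *Pdpn*. The cause of these changes was not tested. The lowest library count of 4 members was under 100, so counting error adds to their spread, and no alternative varied the depth.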
